A study of Mus musculus with 2 samples.

Results

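Calcitonin gene-related peptide (CGRP) and its receptor subunits were followed in lung group 2 innate lymphoid cells (ILC2s), tissue-resident lymphocytes that release type 2 cytokines. The members were chosen by name, 7 genes of the 32285 in the count tables: the ligand genes Calca, Calcb and Adm, the receptor gene Calcrl, and the receptor partner genes Ramp1, Ramp2 and Ramp3. Cells were taken from WT mice and from Pac1-/- mice (C57BL/6J background), which lack the phosphatase PAC1 encoded by Dusp2 in all cells, not only in ILC2s. Live lung cells without lineage markers and with CD90.2, Sca-1 and ST2 on their surface were sorted from mice aged 6 to 8 weeks, and cells of 4 to 5 mice were pooled into 1 droplet 3' library per genotype. No stimulus is named for these libraries, and no label assigned cells to a mouse. With 1 library per genotype there was no replicate, no test between genotypes was possible, and every interval given covers counting error only.

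CGRP is a neuropeptide known to restrain ILC2 responses. Its receptor is a pair of proteins: CALCRL, a G protein-coupled receptor that raises cAMP, needs a RAMP partner to reach the cell surface and bind its ligand. CALCRL with RAMP1 is the CGRP receptor, whereas CALCRL with RAMP2 or RAMP3 is a receptor for adrenomedullin, the vasoactive peptide encoded by Adm. In lung, CGRP is classically a product of sensory nerves and pulmonary neuroendocrine cells, and Calcrl, Ramp2, Ramp3 and Adm are well known from endothelial and stromal cells.

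Calca (ENSMUSG00000030669) lies on the minus strand at chr7:114631478-114636357 (GENCODE annotation of GRCm38), and Calcb (ENSMUSG00000030666), which encodes a second form of CGRP, on the plus strand of the same chromosome at chr7:114718643-114723365. The longest run of bases that annotated transcripts of these genes share is printed because a read lying wholly inside it would fit both. The read length that the paper states is longer than this run. It holds 61 bases and lies inside the coding sequence of each gene.

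Calca and Calcb shared run: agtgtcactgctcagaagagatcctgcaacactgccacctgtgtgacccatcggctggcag

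The run was present in 2 of 7 Calca transcripts and in 1 of 3 Calcb transcripts. It ends 553 bases from the 3' end of the transcript Calca-201 and 284 bases from that of Calcb-203. Calca also makes the hormone calcitonin by alternative splicing, and the 6 annotated coding transcripts end at 6 different positions. The deposited counts are per gene, so transcripts for CGRP and for calcitonin could not be told apart. Calcrl (ENSMUSG00000059588) lies at chr2:84330626-84425411, Ramp1 (ENSMUSG00000034353) at chr1:91179822-91225196, Ramp2 (ENSMUSG00000001240) at chr11:101246028-101259546, Ramp3 (ENSMUSG00000041046) at chr11:6658521-6677475 and Adm (ENSMUSG00000030790) at chr7:110627661-110629820. Ramp3 and Adm each overlap a gene on the opposite strand (Gm11978 and Gm28863), and Ramp2 overlaps Vps25 on its own strand. How the authors' counting treated strand was not given in the sources used here.

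Promoter sequences were available for 5 of the 7 members (RefSeq, GRCm38.p6; 250 bases before to 50 bases after the start). They were searched on both strands for the cAMP response element, the palindrome TGACGTCA, and for its first 5 letters, TGACG. The palindrome was in none of the 5 windows and in 1.79% of 32851 promoters of the same length. The 5 letters, which every palindrome also holds, were in the windows of Calca and Ramp1 and in 20.8% of all promoters. The distal 220 bases of the Calca and Ramp3 windows are printed because transcripts of these genes were found in the same cells (below). Capitals mark TGACG on either strand, with the positions chr7:114636388-114636607 (minus strand) for Calca and chr11:6658283-6658502 (plus strand) for Ramp3.

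Calca promoter: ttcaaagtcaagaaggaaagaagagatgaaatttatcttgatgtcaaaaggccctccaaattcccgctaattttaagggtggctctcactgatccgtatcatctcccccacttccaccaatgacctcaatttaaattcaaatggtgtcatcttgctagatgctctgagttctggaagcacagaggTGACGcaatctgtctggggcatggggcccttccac

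Ramp3 promoter: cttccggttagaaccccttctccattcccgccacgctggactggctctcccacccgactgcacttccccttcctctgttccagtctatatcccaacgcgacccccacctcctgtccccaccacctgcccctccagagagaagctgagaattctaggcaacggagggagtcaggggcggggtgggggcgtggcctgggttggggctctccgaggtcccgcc

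The Calca match began 65 bases before the start. The windows differed in base composition, with 45.5% G or C in the Calca stretch and 65.0% in that of Ramp3. A match to these letters is a description of the sequence and not a binding site.

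A barcode counted as a cell if it held 500 or more genes and no more than 10% of its unique molecular identifiers were mitochondrial (UMIs, the tags that count each captured transcript as 1 molecule). This left 8394 of 10866 WT and 7087 of 9495 Pac1-/- barcodes, with 54579034 and 58338886 UMIs and a median of 4186.5 and 5577 UMIs per cell. The libraries shared 15 barcode sequences among these cells. UMIs of at least 2 ILC2 markers were held by 99.1% of WT and 99.0% of Pac1-/- cells. Cells with UMIs of at least 2 markers of another type made up, in WT and Pac1-/-, 0.846% and 0.367% for T cells, 0.810% and 1.95% for B cells, 0.369% and 0.564% for endothelial cells, 0.810% and 2.498% for epithelial cells and 0.226% and 1.30% for erythroid cells, and at most 0.183% for macrophages, neutrophils, mast cells or basophils, stromal cells and platelets. Dusp2 had 1419 UMIs in the WT library and 5 in the Pac1-/- library.

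The Calca gene was the most abundant member, and transcripts of Calcrl, Ramp1 and Ramp3 were also counted in the sorted cells, whereas Calcb and Ramp2 were at or near the limit of detection. Levels are CPM, a gene's UMIs summed over the cells of a library and scaled to the same total in each library, with exact 95% Poisson intervals, and since a 3' library tags each transcript at its end they were not divided by length. Calca stood at 493 CPM (488 to 499) in WT and at 351 CPM (346 to 356) in Pac1-/-. Calcb gave 13 UMIs in WT and 16 in Pac1-/-, which is 0.238 and 0.274 CPM.

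All 10 WT and 14 Pac1-/- cells with a Calcb UMI held at least 2 ILC2 markers. Calca UMIs were found beside Calcb in 10 of 10 WT and 12 of 14 Pac1-/- cells, and cells with Calca were deeper than cells without, with a median of 5849 against 3650 UMIs in WT and 7975.5 against 4973 in Pac1-/-. Whether reads of Calca entered the Calcb count was not tested. Adm stood between these ligand genes, at 8.94 CPM (8.17 to 9.77) in WT and 14.98 CPM (14.0 to 16.0) in Pac1-/-. The share of cells with an Adm UMI was 3.77% in WT and 6.04% in Pac1-/-.

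Among the receptor genes, Ramp1, the partner that makes the CGRP receptor, had the highest level, with 253 CPM (249 to 257) in WT and 313 CPM (308 to 317) in Pac1-/-. Ramp3 followed in WT with 197 CPM (193 to 201), and stood at 114 CPM (112 to 117) in Pac1-/-. Calcrl stood at 178 CPM (175 to 182) in WT and 95.8 CPM (93.3 to 98.3) in Pac1-/-. By summed UMIs the order in both libraries was therefore Ramp1, Ramp3, Calcrl, with no overlap of neighbouring counting intervals. By the share of cells with a UMI, Calcrl stood above Ramp3, at 48.9% against 38.3% in WT and 41.4% against 29.1% in Pac1-/-. Ramp2 had 30 UMIs in WT (0.550 CPM, 0.371 to 0.785) and 95 UMIs in Pac1-/- (1.63 CPM, 1.32 to 1.99).

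**Figure D1:**
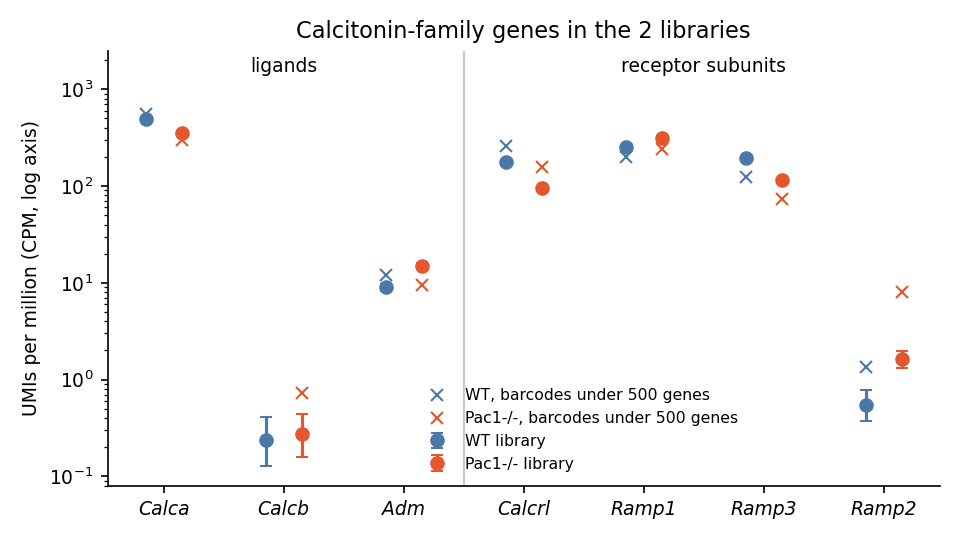
Level of each member in CPM on a log axis, in the WT (blue) and Pac1-/- (orange) libraries; filled points with exact 95% Poisson intervals are the cells used, and crosses are barcodes with under 500 detected genes (Calcb in WT, at 0 there, is not drawn). Calca, Calcrl, Ramp1 and Ramp3 lie between 95.8 and 493 CPM, and Calcb and Ramp2 at or under 1.63 CPM in the cells used.

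Barcodes with few detected genes and cells of other types were read beside these levels. Whether the barcodes with few genes hold free RNA or the RNA of ILC2s was not tested. Barcodes with under 500 detected genes, whose median was 596 UMIs in WT and 579 in Pac1-/-, held the same members: Calca at 559 and 301 CPM, Calcrl at 256 and 158 CPM, Ramp1 at 199 and 239 CPM, and Ramp3 at 125 and 73.0 CPM. The libraries had no cell with UMIs of 2 neuronal markers (Snap25, Tubb3, Prph), and the summed level of that list was 0.0550 CPM in WT and 0.0514 CPM in Pac1-/-, with Snap25 at 0 in each library.

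Cells with UMIs of 3 or more B cell markers served as cells that should lack these genes. There were 10 in WT and 23 in Pac1-/-, with a median of 4297.5 and 4652 UMIs, of which 5 and 11 also held at least 2 ILC2 markers. Those 5 and 11 may carry transcripts of ILC2s, so the B marker cells were not a clean background. After each cell was thinned to 1500 UMIs, Calca was found in 3 of the 10 and 3 of the 23, against 30.6% of all WT and 21.6% of all Pac1-/- cells. Ramp1 was found in 0 of 10 (which allows a share of up to 30.8%, the upper limit of the exact binomial interval) and 2 of 23 (8.70%, exact binomial interval 1.07% to 28.0%), against 30.5% and 36.6%. Calcrl was found in 1 of 10 and 1 of 23, and Ramp3 in 2 of 10 and 2 of 23. Cells with fewer than 2 ILC2 markers, of which 14 in WT and 27 in Pac1-/- were deep enough to thin, held Calca in 1 and 1, Calcrl in 1 and 3, Ramp1 in 2 and 3, and Ramp3 in 1 and 1. For Calca in Pac1-/- the exact binomial interval of 1 of 27 reached 19.0%, under the 21.6% of all cells, whereas for Calcrl 3 of 27 is 11.1% against 12.4%. In these few cells the background interval included the share of all cells for Calcrl and Ramp3 in each library and for Calca and Ramp1 in WT, so those shares could not be told from background this way; for Calca in Pac1-/- it did so in the B marker cells (3 of 23, up to 33.6%). The Ramp1 share of all Pac1-/- cells lay above the interval of the Pac1-/- B marker cells.

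The genotypes differed most in Calcrl and Ramp3 among the abundant members. As counted, the Pac1-/- over WT ratio was -0.90 on the log2 scale for Calcrl (95% interval -0.94 to -0.85), -0.78 for Ramp3 (-0.83 to -0.74) and -0.49 for Calca (-0.52 to -0.46), while Ramp1 stood at 0.31 (0.28 to 0.34) and Adm at 0.74 (0.58 to 0.91). The median gene among the 12427 with at least 50 UMIs over both libraries stood at 0.19, so ratios are also given relative to it, and a gene past 1.5-fold on that scale is counted as lower or higher. By this rule 12.8% of all genes were lower and 8.2% were higher.

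Of the 6 members with enough UMIs, Calcrl (-1.08), Ramp3 (-0.97) and Calca (-0.68) were lower in Pac1-/-, Ramp2 (1.38) was higher, and Ramp1 (0.12) and Adm (0.56) were within 1.5-fold. These calls depend in part on the scaling: as counted, the Pac1-/- level was 0.712 of the WT level for Calca, which is within 1.5-fold, and 1.68 of it for Adm, which is past it. Calcrl (0.538), Ramp3 (0.581) and Ramp2 (2.96) were past 1.5-fold and Ramp1 (1.238) within it on either scale. Without cells that held 2 markers of a non-lymphoid type or of B cells, the ratio as counted was -0.90 for Calcrl, -0.77 for Ramp3 and -0.50 for Calca. In sorted cells summed in this way, fewer cells with a transcript and fewer transcripts per cell cannot be told apart from the sum alone. With each cell thinned to 1500 UMIs, the share of cells with a UMI moved from 20.9% to 12.4% for Calcrl, from 18.6% to 11.5% for Ramp3, from 30.6% to 21.6% for Calca and from 30.5% to 36.6% for Ramp1. The mean over the thinned cells moved from 0.264 to 0.139 UMIs for Calcrl, from 0.260 to 0.164 for Ramp3, from 0.660 to 0.473 for Calca and from 0.376 to 0.473 for Ramp1.

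**Figure D2:**
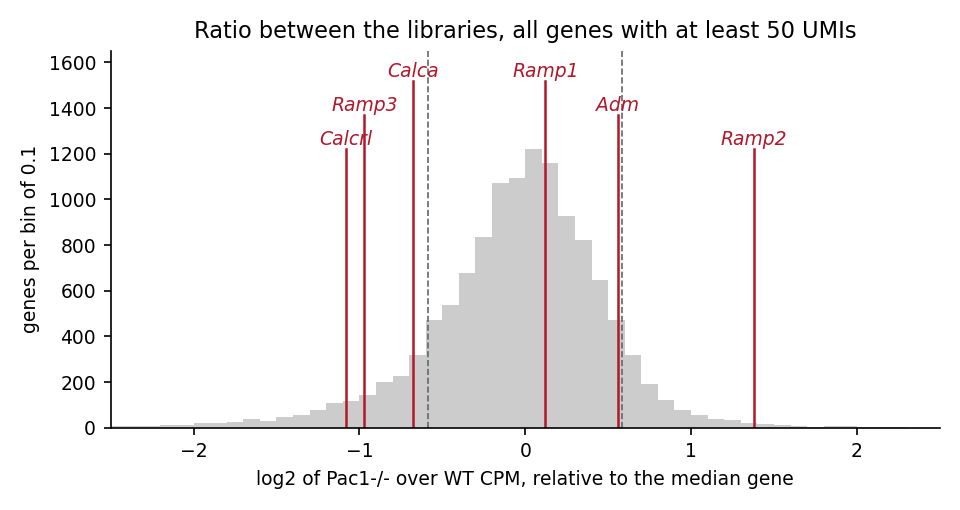
Number of genes per bin of the log2 ratio of Pac1-/- over WT CPM, relative to the median gene, for genes with at least 50 UMIs over both libraries and a UMI in each (grey; the axis shows -2.5 to 2.5). Dashed lines mark 1.5-fold; Calcrl, Ramp3 and Calca lie past the lower line, Ramp2 past the upper line, and Ramp1 and Adm between them.

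Ramp2 was read separately, because its 95 Pac1-/- UMIs were in few cells. In the Pac1-/- library 60 of the 95 were in the 40 cells with UMIs of at least 2 endothelial markers (Pecam1, Cdh5, Cldn5, Egfl7, Kdr, Tek), where Ramp2 stood at 120 CPM against 0.605 CPM outside. Of 9 Pac1-/- cells with at least 3 such markers, 8 held Ramp2 and 7 held Calcrl, at 1166 and 583 CPM. In WT, 6 of the 30 UMIs were in 31 cells with at least 2 endothelial markers, at 13.3 CPM against 0.443 CPM outside. Without these cells the log2 ratio of Ramp2 was 0.45 (-0.34 to 1.26) in place of 1.57 (0.96 to 2.21), and without only those with at least 3 endothelial markers it was 0.88 (0.17 to 1.62). The endothelial marker list as a whole summed to 43.1 CPM in WT and 39.9 CPM in Pac1-/-, with none of its 6 markers at 0. The same cells held only 69 of the 5586 Calcrl UMIs and 64 of the 6674 Ramp3 UMIs of the Pac1-/- library.

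The members also differed in how their UMIs were spread over cells. Cells with a Calca UMI made up 49.3% of the WT and 40.1% of the Pac1-/- library, and 918 WT cells (10.9%) and 655 Pac1-/- cells (9.24%) held 10 or more Calca UMIs, with a maximum of 73 and 109 in a cell. The 10% of cells with the most Calca held 60.2% of its UMIs in WT and 70.7% in Pac1-/-. By this share, taken before thinning, Ramp3 was close to Calca, with 59.0% and 69.2% of its UMIs in its top 10% of cells. At equal depth the variance of its UMI count over the mean was lower than for Calca (below). Its mean was lower too, at 0.260 against 0.660 UMIs in WT and 0.164 against 0.473 in Pac1-/-, so these genes were not compared at like means. Calcrl (49.1% and 49.4%) and Ramp1 (41.1% and 40.0%) were spread more evenly.

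At equal depth the Fano factor, the variance of the UMI count over its mean, was 3.02 in WT and 3.68 in Pac1-/- for Calca, which ranked 31 of 3371 and 26 of 3699 genes found in at least 5% of cells. It was 1.57 and 1.75 for Ramp3 (rank 148 and 123) and 1.28 and 1.13 for Calcrl (rank 304 and 632). For Ramp1 it was 1.06 and 1.09 (rank 1684 and 986), beside a median of 1.06 and 1.05 over all these genes. Calca and Ramp3 transcripts were thus concentrated in some of the cells, Calcrl less so, and Ramp1 was at the median in WT and above it in Pac1-/-.

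**Figure D3:**
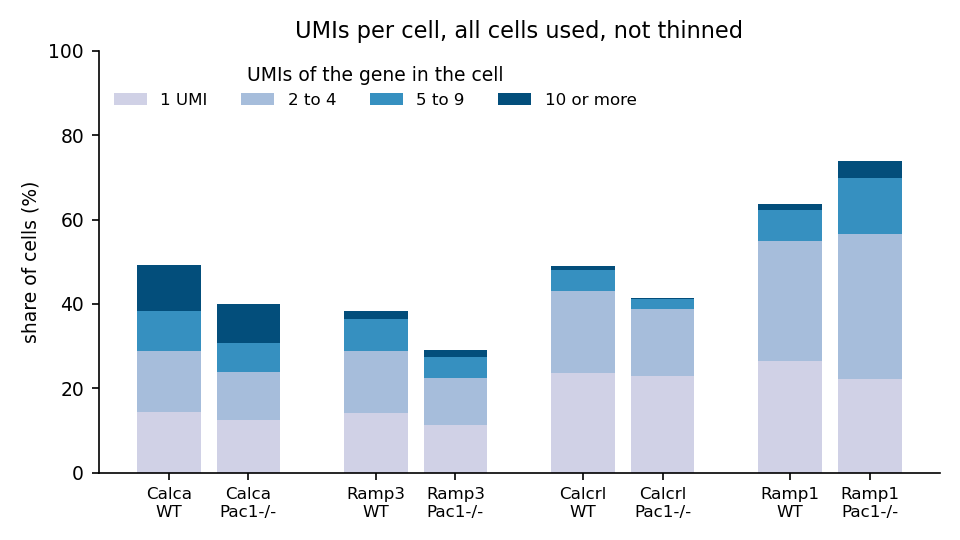
Share of cells that held 1, 2 to 4, 5 to 9, or 10 or more UMIs of Calca, Ramp3, Calcrl and Ramp1 in each library, before thinning; the rest of each bar up to 100% is cells without a UMI. The darkest part, 10 or more UMIs, is 10.9% of WT and 9.24% of Pac1-/- cells for Calca, and at most 4.13% for the other genes.

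Which RAMP gene was found together with Calcrl was asked within each library. Before any correction for depth, Ramp1 appeared to go with Calcrl: it was found in 73.1% of WT cells with a Calcrl UMI against 54.5% of those without, and in 83.2% against 67.4% of Pac1-/- cells. Cells with a Calcrl UMI were deeper, with a median of 5837.5 against 3621 UMIs in WT and 7780 against 4931.5 in Pac1-/-. Each cell was therefore thinned to 1500 UMIs, which kept 7634 WT cells (90.95%) and 6564 Pac1-/- cells (92.6%).

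At equal depth Ramp1 was found in 31.2% of 1598 WT cells with Calcrl and 30.3% of 6036 without, a difference of 0.879 percentage points (95% interval by Newcombe's method -1.63 to 3.46). In Pac1-/- the shares were 38.1% of 812 and 36.4% of 5752 cells, a difference of 1.61 points (-1.89 to 5.22). The ratio of shares was 1.03 in WT and 1.04 in Pac1-/-, and the median ratio over all genes was 1.02 in each library. A ratio at or over the inverse of 0.8 was reached by 2.11% of 3370 genes in WT and 5.46% of 3698 genes in Pac1-/-, and Ramp1 was not among them. Detection of Ramp1 in cells with and without Calcrl thus differed by less than the counting error at 1500 UMIs. At 3000 UMIs the WT shares were 53.2% and 50.2%, a ratio of 1.06 whose interval (1.01 to 1.11) excluded 1, and in Pac1-/- they were 57.8% and 56.6% (1.02, 0.969 to 1.07).

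Ramp3 was found less often in cells with Calcrl. The shares at equal depth were 16.5% with Calcrl against 19.1% without in WT (difference -2.58 points, -4.59 to -0.447) and 7.76% against 12.01% in Pac1-/- (-4.26 points, -6.12 to -2.05). The ratios were 0.865 and 0.646, and 0.8 or less was reached by 0.712% of genes in WT and 2.46% in Pac1-/-. In a second random draw of the thinning the Pac1-/- ratio was 0.825 (0.659 to 1.03), which is not past 0.8, and at 1000 UMIs the WT ratio was 0.975 (0.832 to 1.14). Before thinning the direction was the opposite, with 45.3% against 31.7% in WT and 35.3% against 24.8% in Pac1-/-.

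Of the 1598 WT cells with Calcrl at equal depth, 26.5% held Ramp1 without Ramp3, 11.8% held Ramp3 without Ramp1, 4.69% held both and 57.0% held neither. Of the 812 Pac1-/- cells, 35.1% held Ramp1 without Ramp3, 4.80% held Ramp3 without Ramp1, 2.96% held both and 57.1% held neither. Ramp2 was found in 1 of the WT cells and 3 of the Pac1-/- cells with Calcrl. Ramp1 was thus the partner gene found most often beside Calcrl in each library.

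Cells without a partner transcript became fewer as depth rose. At 1500 UMIs, cells with Calcrl held any of the 3 RAMP genes in 43.0% of cases in WT and 43.2% in Pac1-/-, and in 81.4% and 87.4% at full depth. A missing UMI therefore does not show a missing transcript. Ramp1 and Ramp3 were found together less often than apart, since Ramp3 was in 15.5% of WT cells with Ramp1 against 19.9% without (difference -4.37 points, -6.16 to -2.52) and in 9.06% against 12.9% of Pac1-/- cells (-3.82 points, -5.33 to -2.26).

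The ligand gene Calca was found less often in WT cells with Calcrl, at 26.7% against 31.6% (difference -4.91 points, -7.33 to -2.40). In Pac1-/- the shares were 18.8% and 22.0% (-3.11 points, -5.88 to -0.0926), but for the same cells split by Calca the interval included no difference in most thinned alternatives (given with that split). Adm was found in 1.502% against 0.928% of WT cells (0.574 points, 0.0117 to 1.33) and in 2.46% against 1.86% of Pac1-/- cells (0.603 points, -0.341 to 1.95). Pcsk1, which encodes a prohormone convertase, had a ratio of 1.14 in WT, rank 421 of 3370 genes, where the interval of the difference included 0 (1.34 points, -0.313 to 3.14), and of 1.31 in Pac1-/-, rank 105 of 3698.

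**Figure D4:**
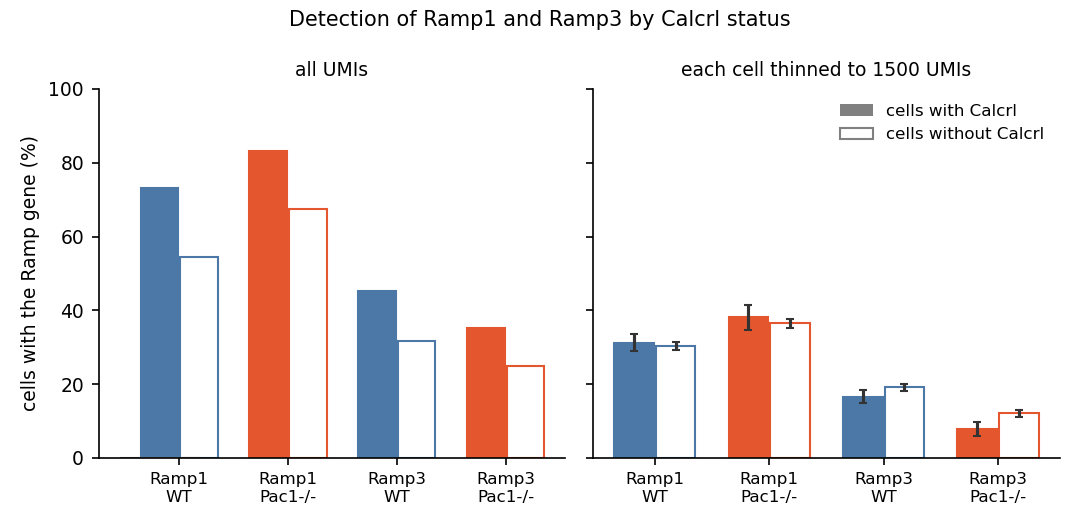
Share of cells with a Ramp1 or Ramp3 UMI among cells with and without a Calcrl UMI in each library, from all UMIs (left) and after thinning to 1500 UMIs (right, with exact 95% binomial intervals); filled bars are cells with Calcrl and open bars cells without, WT in blue and Pac1-/- in orange. Before thinning both genes are higher in cells with Calcrl; after thinning Ramp1 stands at 31.2% against 30.3% in WT and Ramp3 at 16.5% against 19.1%.

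The receptor status of cells that hold the ligand transcript was compared next. At equal depth, cells with Calca held Ramp3 more often and Ramp1 less often than cells without Calca in each library, and Calcrl less often in WT. For Calcrl in Pac1-/- the share was also lower, but the interval of the ratio included 1 in 6 of 9 thinned alternatives. Ramp3 was found in 29.4% of 2336 WT cells with Calca against 13.8% of 5298 without (difference 15.6 points, 13.6 to 17.7), and in 22.7% of 1416 against 8.39% of 5148 Pac1-/- cells (14.4 points, 12.1 to 16.7). The ratio of shares was 2.13 in WT, rank 6 of 3370 genes, and 2.71 in Pac1-/-, rank 1 of 3698. The inverse of 0.8 was reached by 9.47% of genes in WT and 7.68% in Pac1-/-.

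Calcrl was found in 18.3% of WT cells with Calca against 22.1% without (difference -3.82 points, -5.72 to -1.87) and in 10.8% against 12.8% of Pac1-/- cells (-2.00 points, -3.78 to -0.0579). Ramp1 was found in 26.2% against 32.3% of WT cells (-6.09 points, -8.25 to -3.88) and in 32.9% against 37.7% of Pac1-/- cells (-4.76 points, -7.50 to -1.94). The ratios, 0.827 and 0.844 for Calcrl and 0.812 and 0.874 for Ramp1, stood above 0.8, a value that 12.3% of genes in WT and 13.8% in Pac1-/- were at or under. The median ratio over all genes was 0.961 in WT and 0.953 in Pac1-/-.

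These directions depended on equal depth for Calcrl and Ramp1 and not for Ramp3. Before thinning Calcrl was found in 54.3% of WT cells with Calca against 43.7% without, Ramp1 in 68.0% against 59.3%, and Ramp3 in 57.0% against 20.2%. Thinning did not make the cells alike in the depth they had before it: thinned WT cells with Calca had a median of 5389 against 4182.5 UMIs before thinning, and Pac1-/- cells 6981.5 against 5616.5. Within cells under the median depth of their library the Ramp3 ratio was 2.53 in WT and 3.22 in Pac1-/-, and within the deeper cells 1.81 and 2.34.

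The share of cells with Ramp3 was higher in cells with more Calca UMIs. It was 13.8%, 25.4%, 30.8% and 45.1% in WT cells with 0, 1, 2 to 4, and 5 or more Calca UMIs at equal depth. In Pac1-/- cells it was 8.39%, 17.7%, 26.1% and 38.5%. Ramp1 went from 32.3% to 29.5%, 23.2% and 20.4% in WT, and from 37.7% to 32.7%, 34.0% and 29.5% in Pac1-/-. Calcrl went from 22.1% to 19.5%, 17.3% and 15.7% in WT, and from 12.8% to 12.5%, 8.59% and 10.7% in Pac1-/-. The cells with 5 or more Calca UMIs numbered 235 in WT and 122 in Pac1-/-.

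**Figure D5:**
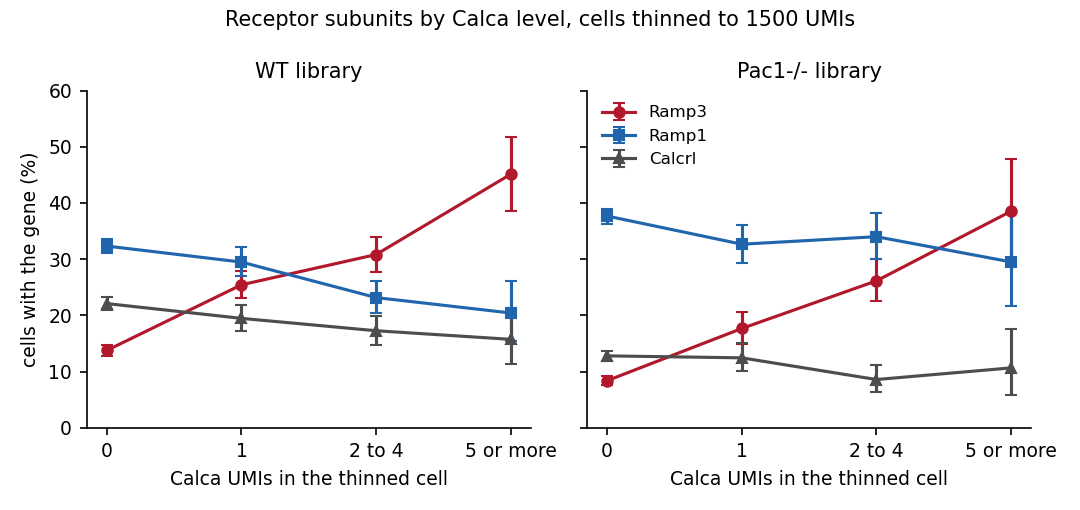
Share of thinned cells with a Ramp3, Ramp1 or Calcrl UMI against the number of Calca UMIs in the cell, in each library, with exact 95% binomial intervals. Ramp3 goes from 13.8% to 45.1% in WT and from 8.39% to 38.5% in Pac1-/-, while Ramp1 and Calcrl end below the share in cells without Calca.

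The pair of transcripts for the CGRP receptor, Calcrl with Ramp1, was in 4.67% of WT cells with Calca (exact binomial interval 3.85% to 5.60%) against 7.34% of those without (6.65% to 8.08%). In Pac1-/- it was in 3.39% (2.51% to 4.47%) against 5.07% (4.49% to 5.71%). Calcrl with Ramp3 went the other way, with 5.14% (4.28% to 6.11%) against 2.72% (2.30% to 3.19%) in WT and 1.91% (1.26% to 2.76%) against 0.699% (0.490% to 0.967%) in Pac1-/-. Calcrl with Ramp1, Ramp3 or both was in 8.48% against 9.23% of WT and 4.59% against 5.50% of Pac1-/- cells, with overlapping intervals in each library. These pair shares also reflect the shares of the single genes given above, and a pair share expected from those was not computed.

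Calca and Ramp3 were also found with the type 2 cytokine genes Il5 and Il13. At equal depth Ramp3 was in 28.6% of 3034 WT cells with an Il5 or Il13 UMI against 11.96% of 4600 without, and in 23.3% of 1622 against 7.61% of 4942 Pac1-/- cells. Calca was in 42.6% against 22.7% of WT and 37.5% against 16.4% of Pac1-/- cells. Ramp1 was in 28.5% against 31.7% of WT and 34.3% against 37.4% of Pac1-/- cells, and Calcrl in 19.8% against 21.7% and 10.9% against 12.9%.

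The relation of Ramp3 to Calca was present on each side of this split, which rests on UMIs found after thinning. Cells without an Il5 or Il13 UMI may still hold these transcripts. Il5 was in 33.0% of WT cells after thinning and 53.1% before it, and in 19.6% and 39.5% of Pac1-/- cells. Among cells without Il5 and Il13, Ramp3 was in 19.2% of WT cells with Calca against 9.82% without (difference 9.42 points, 6.92 to 12.1), and in 15.5% against 6.07% of Pac1-/- cells (9.40 points, 6.94 to 12.1). Among cells with Il5 or Il13 it was in 37.7% against 21.9% of WT cells (15.8 points, 12.5 to 19.1) and in 32.4% against 17.9% of Pac1-/- cells (14.6 points, 10.2 to 19.0). In WT cells with a Dusp2 UMI, 227 after thinning, Calca was found in 24.7% against 30.8% of the others (-6.11 points, -11.4 to -0.0239) and Ramp3 in 13.7% against 18.7% (-5.06 points, -9.03 to 0.0943).

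The genes whose counts went most like each member over the thinned cells were sought among 3212 genes, by Pearson r of log(1 + UMIs), as a description over 7634 WT cells of 1 library. For Calca they were Il5 (r = 0.305), Crem (0.301), Hilpda (0.270), Sub1 (0.270) and Lmo4 (0.268), and Ramp3 ranked 18 in WT (0.217) and 9 in Pac1-/- (0.230). For Ramp3, a member added to this search after its values were seen, they were Hilpda (0.261), Il5 (0.255), Rora (0.251), Lmo4 (0.246) and Crem (0.239). In WT, Calca and Ramp3 thus shared Il5, Crem, Hilpda and Lmo4 among their leading 5 genes. In Pac1-/- Il5, Crem and Hilpda ranked 1, 2 and 3 for Calca and 3, 2 and 1 for Ramp3, while Lmo4 ranked 14 and 16.

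For Ramp1 the leading genes were the cytoskeletal genes Tmsb4x (r = 0.116) and Actb, followed by Sh3bgrl3, Cd52 and S100a4 at 0.0801 or less in WT. For Calcrl no r exceeded 0.0595 (Actb) in WT, followed by Vim, B930036N10Rik, S100a6 and Txnip. In Pac1-/- these ranked 72, 21, 2023, 84 and 407, so the order of genes for Calcrl did not recur. Calcrl and Ramp1 had an r of 0.0042 in WT and 0.0170 in Pac1-/-.

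The rest of the pathway was read from lists of named genes. Among other genes of the calcitonin family, Adm2 and Iapp had no UMI in either library (which allows a level of up to 0.0550 CPM in WT and 0.0514 CPM in Pac1-/-, 3 counts), and Calcr, the calcitonin receptor, had 1 UMI in WT and 0 in Pac1-/-. Crcp, which encodes the CGRP receptor component protein, stood at 9.82 and 11.6 CPM.

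Of 8 genes for processing of peptide precursors, 6 were tested between the libraries and 1 was lower in Pac1-/-, beside 12.8% of all genes: Furin, a proprotein convertase, at 749 CPM in WT and 534 CPM in Pac1-/- (-0.68 relative to the median gene, and -0.49 as counted, which is within 1.5-fold). Pcsk1 stood at 80.9 and 64.9 CPM (-0.51, within 1.5-fold) and Pcsk2, the convertase of many neurons, had no UMI in either library. Pam, which amidates peptide ends, gave 122 and 198 UMIs (0.41, within 1.5-fold, and 0.60 as counted, which is past 1.5-fold). The median of the 6 was -0.38, and -0.19 as counted. Furin was found with Calca, in 63.2% against 49.6% of WT and 54.5% against 37.7% of Pac1-/- cells at equal depth, whereas Pcsk1 was in 8.78% against 10.8% and 7.27% against 8.49%.

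Of 4 genes for peptide breakdown 2 were tested and none was past 1.5-fold (median 0.11, and 0.30 as counted). Of 6 genes for coupling and desensitization of G protein-coupled receptors all were tested and 1 was lower, again beside 12.8% of all genes: Grk5, a receptor kinase (-1.11). Gnas, which encodes the stimulatory G protein subunit, stood at -0.22 (-0.03 as counted). The median of the 6 was -0.19, and -0.003 as counted.

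Of 8 genes that the study names as CGRP responses, 4 were lower in Pac1-/-: Gpr65 (-1.58), Crem (-1.21), Tnfrsf9 (-1.13) and Lmo4 (-0.73; -0.54 as counted, which is within 1.5-fold). None was higher, and the median was -0.64 (-0.45 as counted), beside 0 for the median gene by construction and 12.8% of all genes lower. The study picked these genes for their direction, so the list is not independent evidence of it. It named them in ILC2s treated in vitro with CGRP and another signal, some from RNA and some from chromatin accessibility. The values here are RNA of sorted cells for which no stimulus is named. Crem, a cAMP-responsive transcription factor gene, was found in 49.4% of WT cells with Calca against 25.2% without, and in 34.8% against 14.3% of Pac1-/- cells.

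Adm was read beside epithelial markers, since 27 of the 428 Pac1-/- cells with Adm held at least 2 epithelial markers and 100 of the 874 UMIs. Such cells held 7 of the 488 WT UMIs. In Pac1-/- the cells with at least 2 epithelial markers were deep, with a median of 16166 UMIs against 5577 for all cells. At equal depth Adm was in 6 of 173 of them (3.47%, exact binomial interval 1.28% to 7.40%). That interval includes the 1.935% of all thinned Pac1-/- cells. Nearly all cells with Adm, 313 of 316 in WT and 424 of 428 in Pac1-/-, held at least 2 ILC2 markers.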

How the data were processed

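Lung ILC2s of 1 WT and 1 Pac1-/- library were counted by the authors with Cell Ranger (6.1.1 in the processing notes and 4.0.0 in the file header) on mm10, and the deposited values are raw UMI counts per gene and barcode. How overlapping genes and strand were counted is not given in the sources used here. Barcodes with at least 500 genes and at most 10% mitochondrial UMIs were kept, which left out 2403 WT and 2110 Pac1-/- barcodes under 500 genes and 171 and 441 over the mitochondrial limit. Counts were summed per library and divided by its total (CPM, exact Poisson intervals). Shares of cells (exact Clopper-Pearson intervals) were compared after thinning each cell to 1500 UMIs without replacement, which left out 760 WT and 523 Pac1-/- shallower cells; differences of shares have Newcombe intervals and log2 ratios conditional binomial intervals, all at 95% and for counting error only. With 1 library per genotype no p-value was computed. A gene was called lower or higher past 1.5-fold of the median gene, among genes with at least 50 UMIs, and a ratio of shares at 0.8 or its inverse, among genes in at least 5% of thinned cells.

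Doublets were kept in the main values and removed in an alternative; a nearest-neighbour score against simulated doublets (2 per cell, 2000 variable genes, 30 components, 30 neighbours, expected rate 0.8% per 1000 barcodes) marked 730 WT (8.70%) and 538 Pac1-/- cells (7.59%). The genes named are the members, listed pathway genes, Dusp2, Il5 and Il13, and the 5 genes with the highest r to Calca, Calcrl and Ramp1, to which Ramp3 was added after its values were seen. Members and lists were chosen with earlier results of these data known. Scripts were tested on simulated data. The tools were scikit-learn 1.9.0, scipy 1.17.1, numpy 2.4.6, matplotlib 3.10.9, pandas 2.3.3 and Python 3.11.15, with gene positions from GENCODE M21. Of the marker lists of other cell types, 1 is not reported here.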

Additional observations from a re-analysis of the deposited data

Results flagged for a closer look

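The relation of Adm to Calca had opposite directions in the libraries. At equal depth Adm was found in 1.28% of WT cells with Calca and 0.944% without, a difference of 0.341 points (-0.145 to 0.929), and in 1.41% and 2.08% of Pac1-/- cells, a difference of -0.666 points (-1.32 to 0.172). Each interval includes 0, and the difference between the libraries was not tested.

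Barcodes with under 500 detected genes, which no comparison used, held some members at a higher level than the cells. Of 14 levels 7 were higher there by value, and 4 with 95% Poisson intervals that did not overlap: Calca in WT (559.3 CPM, against 493 CPM in cells), Calcrl in WT (256.2 against 178 CPM), Calcrl in Pac1-/- (157.7 against 95.8 CPM) and Ramp2 in Pac1-/- (8.029 against 1.63 CPM, from 11 UMIs). Calcrl was lower in Pac1-/- than in WT in these barcodes too. The part of these barcodes in the levels of the cells was not tested.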

How the results depend on the processing

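No paired analysis was possible because each genotype has 1 library, and no replicate could be left out. For 15 values, 122 alternatives were computed: 94 stayed within the counting interval and the others moved outside it. Without thinning, 6 of the 10 ratios of shares lay on the other side of 1 from their thinned value. The alternatives for Ramp3 and Ramp2, those without thinning and those by depth were chosen after seeing the data. The log2 ratios of Calca, Calcrl, Ramp1 and Ramp3 kept their sign in every alternative run. Relative to the median gene they were -0.678, -1.083, 0.121 and -0.970. From the mean of each cell's own CPM they were -0.840 for Calcrl, 0.276 for Ramp1 and -0.683 for Ramp3. Ramp2 stood at 0.538 without cells of other types, 0.449 without endothelial cells and 2.620 from the mean of each cell's CPM.

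Without thinning, the share ratio by Calcrl status was 1.342 in WT and 1.233 in Pac1-/- for Ramp1, and 1.429 and 1.423 for Ramp3 (reversed in each library); by Calca status it was 1.241 and 1.379 for Calcrl and 1.147 and 1.126 for Ramp1 (each reversed), and 2.830 in WT for Ramp3. These cells differ in depth. With Calca-positive cells taken from 2 UMIs the ratio was 0.701 for Calcrl in Pac1-/-, 0.699 for Ramp1 in WT, and 2.459 and 3.384 for Ramp3 in WT and Pac1-/-. In cells under the median depth it was 0.740 for Ramp1 in WT and 2.532 and 3.223 for Ramp3, and in deeper cells 1.809 and 2.341 for Ramp3; the cause was not tested. Over all thinned alternatives Ramp3 by Calca status ranged from 1.81 to 2.53 in WT and from 2.34 to 3.38 in Pac1-/-, and Ramp3 by Calcrl status from 0.84 to 0.97 and from 0.61 to 0.82. Among thinned alternatives the interval included 1 in 6 of 9 for Calcrl by Calca status in Pac1-/-, in 2 of 8 in WT and 1 of 8 in Pac1-/- for Ramp3 by Calcrl status, and in 1 of 9 for Ramp1 by Calca status in Pac1-/-. For Ramp1 by Calcrl status it excluded 1 in 1 of 8 in WT (1.060, 1.010 to 1.113, at 3000 UMIs), and 2 of the 8 lay under 1. Depth limits statements on Calcb, Ramp2 and Adm.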
